A study of Mus musculus with 7 samples.

Results

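The genes described here build the perineuronal net, and 10 of them were chosen by symbol: the lecticans Acan, Bcan, Ncan and Vcan, the link proteins Hapln1 and Hapln4, the cross-linker Tnr, the hyaluronan synthases Has2 and Has3, and the receptor phosphatase Ptprz1. All 10 had a probe set with 1 gene symbol among the 22180 genes of the array table, and where a gene had several, the brightest on average over the 7 arrays was used. A perineuronal net is a lattice of extracellular matrix that coats the cell body and proximal dendrites of certain neurons, in cortex above all the fast-spiking interneurons that contain parvalbumin. Its backbone is hyaluronan, a sugar polymer made at the cell surface, to which lecticans (proteoglycans carrying chondroitin sulfate) bind with the help of link proteins, while tenascin-R ties lecticans to one another. Nets mature late in development and limit the plasticity of the synapses beneath them.

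RNA bound to GFP-tagged ribosomes of medial prefrontal cortex (mPFC) was measured on 1-colour Affymetrix arrays. In all mice a ribosome tag (the ribosome TRAP transgene) was combined with an ArcCre transgene and tamoxifen was present during the exposure, so tagging depended on Cre expressed under control of the activity-regulated gene Arc. The cocaine group (4 arrays, numbered 4, 5, 6 and 7) came from mice given cocaine at 15 mg/kg for 2 days, and the shock group (3 arrays, numbered 4, 5 and 6) from mice given 20 shocks of 0.5 mA, each lasting 2 s, for 2 days. Age, strain and the number of mice behind an array are not stated in the labels, and no array of unexposed mice was analysed here, so each value is a contrast between the exposures. The labels do not tie the arrays to separate animals, so the p-values capture array-to-array spread that may be technical.

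Values are log2 expression as deposited. Levels of different probe sets were compared only to choose a gene's probe set and to place genes against a background level. The arrays had nearly equal medians (5.44 to 5.47), and of the 7 arrays cocaine array 6 correlated least with the rest (mean r of 0.993 over all genes, against 0.996 for each other array). Arc itself had 9.51 ± 0.55 on the cocaine arrays and 8.83 ± 0.91 on the shock arrays (mean ± SD, n = 4 and 3). The excitatory neuron marker Slc17a7, the vesicular glutamate transporter of cortical projection neurons, averaged 11.73 ± 0.04 on the cocaine arrays and 11.65 ± 0.06 on the shock arrays. A background level of 5.46 (log2) was set from 1394 chemosensory receptor genes (Olfr and Vmn families), as the 95th percentile of their means. Of the 10 net genes 8 lay above it, but Acan did so by only 0.09 and Has3 by only 0.02. Vcan lay 0.38 and Has2 0.28 under it. Differences in these 4 genes are therefore differences in signals close to background.

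Net matrix genes did not separate cocaine-activated from shock-activated cells after correction. In limma's test with Benjamini-Hochberg adjustment over all 22180 genes, 0 of the 10 passed 0.05 (smallest adjusted p = 0.938), where 0% of all genes passed, and 1 of the 10 had an unadjusted p under 0.05, where 3.1% of all genes did (1.57% lower in the cocaine group, as that gene was). Means were lower in the cocaine group for 8 of the 10, where 49.1% of all genes were lower, and the median difference (cocaine minus shock) was -0.097 log2 against 0.0016 over all genes. Without cocaine array 6 that median was -0.049 with 6 of 10 lower, and without shock array 5 it was -0.054 with 7 of 10 lower. Each gene's own 95% interval stayed within 1.43-fold in either direction, so a larger change in signal lies outside the interval of any net gene. For Acan, Has3, Vcan and Has2, whose signals lie close to background, the interval need not bound the change in RNA. The intervals are per gene and were not widened for the number of genes.

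**Figure D1:**
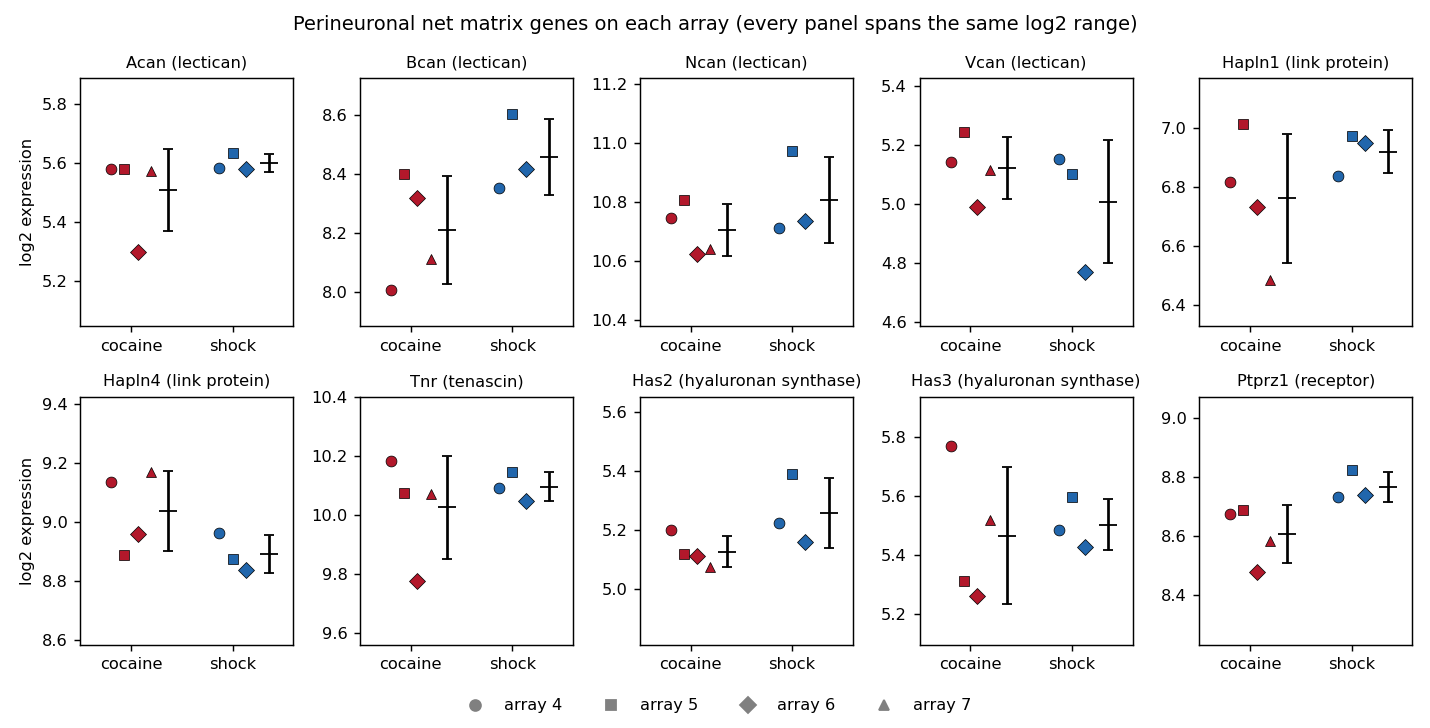
Log2 expression (y axis) of each of the 10 net genes on every array, cocaine (red, n = 4) left of shock (blue, n = 3), with symbols for array numbers and a bar for the mean ± SD. Each panel spans the same log2 width at its own level. Ptprz1 is the 1 gene whose groups do not overlap.

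The lecticans share a hyaluronan-binding head and a lectin-like tail that tenascin-R binds, and differ in how much chondroitin sulfate they carry. Bcan (brevican, probe set 17406629), which astrocytes and oligodendrocyte precursors make, had values of 8.01, 8.40, 8.32 and 8.11 on cocaine arrays 4 to 7, against 8.35, 8.60 and 8.42 on shock arrays 4 to 6. Cocaine arrays 4 and 7 were the lowest, while cocaine array 5 lay above shock array 4, so the groups overlapped. The difference of -0.25 (SE 0.11, 95% interval -0.51 to 0.016) was the largest of the 10 in size and did not pass (limma, unadjusted p = 0.0618, adjusted p = 0.938).

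Ncan (neurocan, probe set 17509944), a lectican of both astrocytes and neurons, had 10.75, 10.81, 10.62 and 10.64 on the cocaine arrays, against 10.71, 10.98 and 10.74 on the shock arrays. The groups overlapped and shock array 5 stood highest. The difference was -0.10 (95% interval -0.29 to 0.088), and -0.019 without shock array 5. A second probe set of Ncan (17501807) differed by -0.14, and there too the groups overlapped, with 8.93, 9.06, 8.69 and 8.60 on the cocaine arrays and 8.93, 8.98 and 8.96 on the shock arrays.

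Acan (aggrecan, probe set 17479335), the proteoglycan most often used to mark nets around parvalbumin cells, had 5.58, 5.58, 5.30 and 5.57 on the cocaine arrays, against 5.58, 5.63 and 5.58 on the shock arrays. Apart from the low value of cocaine array 6, the arrays of both groups lay at one level. The difference of -0.092 (95% interval -0.27 to 0.091) was -0.022 without that array. Vcan (versican, probe set 17294738), a lectican of precursor cells and connective tissue, had 5.14, 5.24, 4.99 and 5.11 in the cocaine group, against 5.15, 5.10 and 4.77 in the shock group. Its difference of 0.11 (95% interval -0.14 to 0.36) came with the low value of shock array 6 and was -0.0054 without it.

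The link proteins clamp lecticans onto hyaluronan, and their means lay on opposite sides. Hapln1 (probe set 17289009), the link protein that cartilage and brain share, had 6.82, 7.01, 6.73 and 6.48 on the cocaine arrays, against 6.84, 6.97 and 6.95 on the shock arrays. Cocaine array 5 was the highest of the 7 and cocaine array 7 the lowest, and the difference of -0.16 (SE 0.12) was -0.066 without cocaine array 7. Hapln4 (probe set 17501800), a link protein found in brain and made by neurons, had 9.13, 8.89, 8.96 and 9.17 on the cocaine arrays, against 8.96, 8.88 and 8.84 on the shock arrays. Cocaine arrays 4 and 7 were the 2 highest, and in 2 of the 12 pairings of a cocaine with a shock array the cocaine array was lower. The difference was 0.15 (SE 0.08, 95% interval -0.044 to 0.33, limma, unadjusted p = 0.112, adjusted p = 0.938), and it stayed between 0.10 and 0.20 when any 1 array was left out.

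Tnr (tenascin-R, probe set 17218568), which comes from oligodendrocyte lineage cells and some interneurons, had 10.19, 10.07, 9.78 and 10.07 on the cocaine arrays, against 10.09, 10.15 and 10.05 on the shock arrays. As for Acan, cocaine array 6 alone was low, and the difference of -0.068 became 0.015 without it. Of the synthases that extrude hyaluronan through the plasma membrane, Has3 (probe set 17505191) had 5.77, 5.31, 5.26 and 5.52 on the cocaine arrays, against 5.49, 5.59 and 5.42 on the shock arrays. The shock values fell inside the spread of the cocaine values. The difference of -0.037 turned to 0.014 without cocaine array 5, 0.031 without cocaine array 6 and 0.0095 without shock array 5. Has2 (probe set 17317167), the main synthase of embryonic tissue, had 5.20, 5.12, 5.11 and 5.07 on the cocaine arrays, against 5.22, 5.39 and 5.16 on the shock arrays. Its difference was -0.13 (95% interval -0.28 to 0.018), and -0.065 without shock array 5. A probe set that carries the symbols of both Has2 and its antisense gene Has2os was left out. It differed by 0.026, on the other side from Has2, at a mean of 4.02, under the background level.

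Ptprz1 (probe set 17456381), a receptor-type phosphatase of astrocytes and precursors whose secreted splice form, phosphacan, is itself a net proteoglycan that binds tenascin-R, was the 1 net gene whose groups did not overlap. It had 8.67, 8.69, 8.48 and 8.58 on the cocaine arrays, against 8.73, 8.82 and 8.74 on the shock arrays. Cocaine array 5 lay just under shock array 4, the lowest of its group. The difference was -0.16 (SE 0.060, 95% interval -0.30 to -0.016, a ratio of 0.895), with an unadjusted p of 0.0344 and an adjusted p = 0.938 by limma. It lay between -0.19 and -0.12 when any 1 array was left out. Groups that do not overlap cannot come to overlap when an array is removed, so their gap is no added check. A single gene of 10 compares with 2.37% of all genes whose groups did not overlap in either direction and 1.11% lower in the cocaine group. That background is sensitive to ties, since for 66.9% of the genes at least 2 arrays shared exactly the same value, and after median centring, which breaks them, 11.4% of all genes did not overlap.

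**Figure D2:**
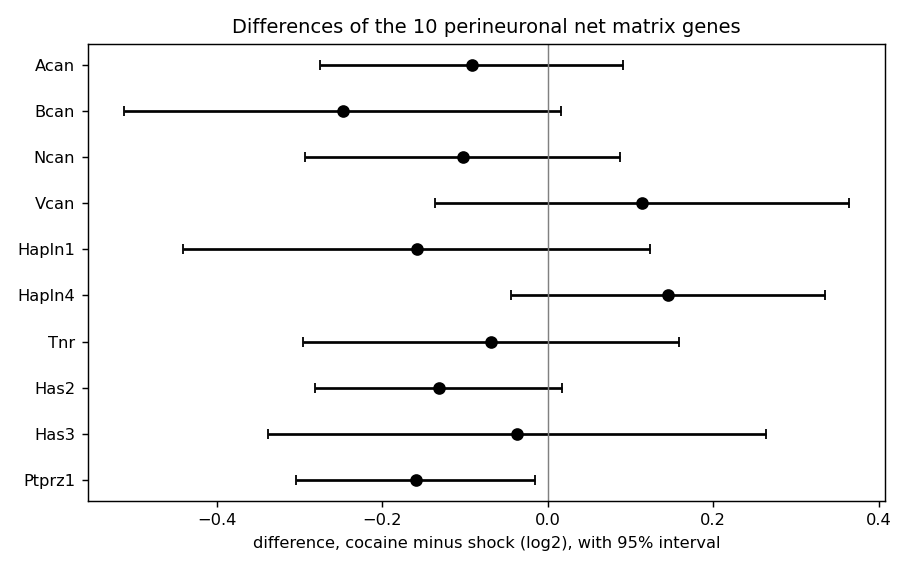
Difference between the group means, cocaine minus shock (x axis, log2), for each net gene with limma's 95% interval per gene (n = 4 and 3 arrays). The interval holds 0 for 9 of the 10 genes, Ptprz1 being the exception, and the lowest bound is that of Bcan at -0.51.

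Promoters, taken from RefSeq (GRCm38.p6) as 250 bases before to 50 after the gene start, were at hand for 7 of the 10 genes. A pair of them is shown for Ptprz1 and Bcan, the net genes of smallest unadjusted p, and a pair for Acan and Tnr, which share the low value of cocaine array 6. Capitals mark the GC box GGGCGG on either strand.
Ptprz1, chr6:22875252-22875551, plus strand: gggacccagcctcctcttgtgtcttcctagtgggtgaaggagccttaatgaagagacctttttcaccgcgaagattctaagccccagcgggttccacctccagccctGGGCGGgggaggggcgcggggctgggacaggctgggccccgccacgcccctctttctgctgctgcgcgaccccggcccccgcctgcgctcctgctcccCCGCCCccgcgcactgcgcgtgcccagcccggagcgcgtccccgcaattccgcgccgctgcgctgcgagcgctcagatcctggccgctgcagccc
Bcan, chr3:88000307-88000606, minus strand: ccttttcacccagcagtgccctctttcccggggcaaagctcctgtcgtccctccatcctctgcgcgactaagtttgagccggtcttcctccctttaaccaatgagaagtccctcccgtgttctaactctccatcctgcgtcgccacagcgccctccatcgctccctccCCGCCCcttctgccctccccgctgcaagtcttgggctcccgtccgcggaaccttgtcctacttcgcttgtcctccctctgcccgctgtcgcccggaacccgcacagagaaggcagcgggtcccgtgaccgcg
Acan, chr7:79052976-79053275, plus strand: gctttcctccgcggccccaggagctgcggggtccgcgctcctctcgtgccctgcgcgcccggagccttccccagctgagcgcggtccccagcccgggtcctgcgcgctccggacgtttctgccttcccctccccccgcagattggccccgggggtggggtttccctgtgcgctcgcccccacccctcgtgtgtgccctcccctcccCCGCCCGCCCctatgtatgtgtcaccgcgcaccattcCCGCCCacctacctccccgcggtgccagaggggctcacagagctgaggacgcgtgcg
Tnr, chr1:159523519-159523818, plus strand: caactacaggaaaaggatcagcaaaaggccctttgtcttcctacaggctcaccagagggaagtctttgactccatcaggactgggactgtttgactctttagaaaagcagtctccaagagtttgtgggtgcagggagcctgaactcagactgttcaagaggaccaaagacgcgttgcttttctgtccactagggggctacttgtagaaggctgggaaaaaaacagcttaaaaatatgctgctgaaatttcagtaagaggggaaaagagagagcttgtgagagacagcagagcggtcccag
The promoters of Acan (74.0% G and C, 31 CpG), Ptprz1 (71.7%, 29 CpG) and Bcan (64.0%, 24 CpG) are rich in CpG, against a median of 52.7% and 7 CpG over all 32851 promoters, while that of Tnr (48.0%, 3 CpG) is not. Acan has 3 GC boxes, in part overlapping, Ptprz1 has 2, Bcan has 1 and Tnr has none. A GC box is present in 5 of the 7 member promoters and in 35.7% of all promoters. The AP-1 motif TGANTCA, bound by Fos and Jun, and the cAMP response element TGACGTCA, both searched on either strand, are in 0 of the 7, against 7.81% and 1.79% of all promoters. No match says only that these letters are not in these windows.

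The net genes did not move over the arrays as 1 block. Among the 45 pairs the median Pearson correlation over the 7 arrays was 0.36 (0.45 after subtracting each group's mean), with 34 pairs positive and 11 negative. These arrays share their normalization, and the correlations are given as descriptions. Acan and Tnr had r = 0.95 (Spearman's rho 0.70), but this rests on cocaine array 6: without it r was 0.42, and without shock array 5 and cocaine array 6, the arrays farthest from the median of Acan, it was 0.15. Acan and Ptprz1 had r = 0.85 (rho 0.89) and 0.87 without the same pair of arrays. Ncan and Has2 had r = 0.84 (rho 0.64), which was 0.27 without cocaine array 6 and shock array 5. Ncan and Ptprz1 had r = 0.82 (rho 0.71), and 0.57 without those arrays.

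Hapln4 took part in 6 of the 11 negative pairs, and its pairs with Has3 (r = 0.51), Vcan (0.36) and Tnr (0.18) were positive. The sign of these positive pairs did not hold throughout. Without cocaine arrays 4 and 7, the arrays farthest from the median of Hapln4, r was -0.28 with Has3 and -0.48 with Tnr. Leaving out 1 array, the lowest r was -0.11 with Vcan and -0.065 with Tnr. Bcan and Hapln4 had r = -0.90 (rho -0.89), which was -0.99 without shock array 5 and cocaine array 4, the arrays farthest from the median of Bcan, and -0.84 after subtracting the group means. Hapln1 and Hapln4 had r = -0.81 (rho -0.75), and -0.61 without cocaine arrays 5 and 7. Shock array 5 was the highest array for 5 of the 10 genes and cocaine array 6 the lowest for 5.

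**Figure D3:**
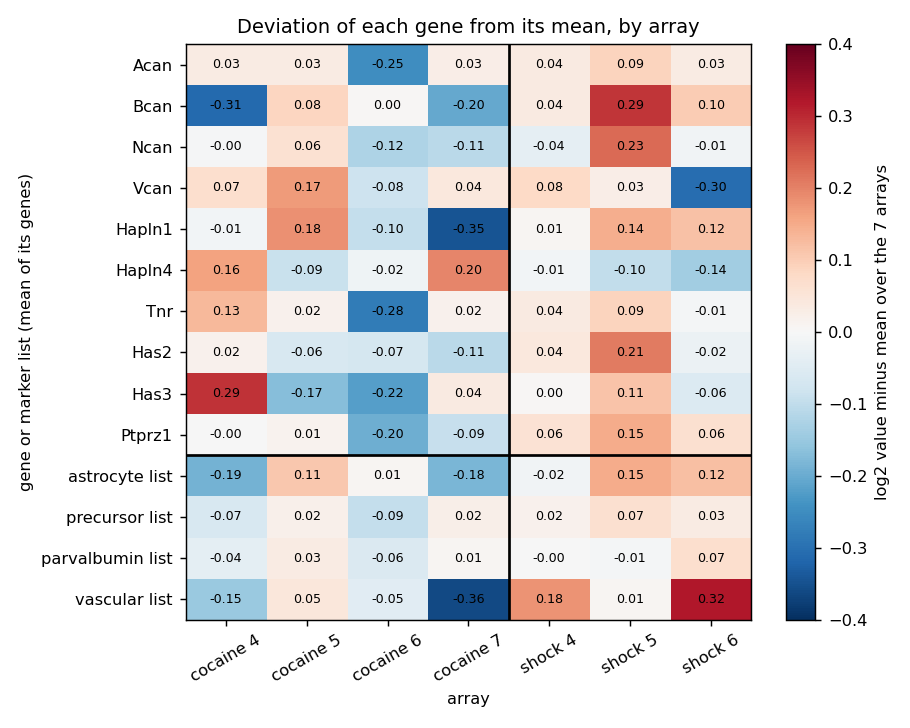
Log2 value minus the mean over the 7 arrays (colour and printed number) for each net gene and for the mean of 4 marker lists, by array, cocaine arrays left of shock arrays. Bcan and Hapln4 have opposite signs on every array, close to 0 on cocaine array 6 and shock array 4, and cocaine array 6 is low for Acan, Tnr, Has3 and Ptprz1.

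Each lectican gene has a link protein gene as its direct protein-coding neighbour in RefSeq gene order, with 0 coding genes between them: Acan and Hapln3 on chromosome 7, Bcan and Hapln2 on chromosome 3, Ncan and Hapln4 on chromosome 8, and Vcan and Hapln1 on chromosome 13. Over the 7 arrays r was 0.53 (rho 0.46) for Acan and Hapln3, -0.10 (rho -0.036) for Bcan and Hapln2, -0.49 (rho -0.46) for Ncan and Hapln4, and -0.042 (rho 0.25) for Vcan and Hapln1. Leaving out 1 array at a time, the value for Acan and Hapln3 ranged from 0.095 to 0.83, and that for Vcan and Hapln1 from -0.33 to 0.45. Differences between the groups lay on opposite sides for Ncan (-0.10) and Hapln4 (0.15) and for Vcan (0.11) and Hapln1 (-0.16). Hapln2, a link protein of myelinated axons at the node of Ranvier, differed by 0.0012, and Hapln3 by -0.0040.

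Markers of the cells that make or carry nets were set beside these values. In a precipitate, fewer cells of a type, less RNA per cell and a different share of RNA from untagged cells cannot be told apart. No array of unprecipitated RNA was analysed here, so whether the marker RNA came from tagged cells was not tested. All 13 measured astrocyte markers had a lower mean in the cocaine group (median difference -0.14), with summed scores, the mean deviation of the list on an array, of -0.19 to 0.11 on the cocaine arrays and -0.015 to 0.15 on the shock arrays. When any 1 array was left out, the median ranged from -0.23 (without shock array 4) to -0.11 (without cocaine array 7), and was -0.21 without cocaine array 5. Of the 13, 12 were lower without cocaine array 4 and 11 without cocaine array 7. Their named members were S1pr1 (-0.27), a lipid receptor gene, Gja1 (-0.23), which encodes the gap junction protein connexin, Sox9 (-0.20), a fate-setting transcription factor gene, and Aqp4 (-0.18), a water channel gene, and 0 of the 13 passed the adjusted test. Bcan followed the astrocyte score (r = 0.95, rho 0.96, and 0.93 after subtracting the group means). Hapln4 ran opposite to it (r = -0.98, rho -0.93, and -0.97 after subtracting the group means). Leaving out any 1 array, r stayed between 0.93 and 0.96 for Bcan and between -0.99 and -0.97 for Hapln4. Without cocaine arrays 4 and 7, the arrays farthest from the median score, r was 0.80 for Bcan and -0.92 for Hapln4. Among the 13749 genes above background outside the list, Hapln4 had the lowest correlation with the astrocyte score and Bcan the 17th highest, where 0.60% had r of 0.9 or more and 0.24% of -0.9 or less. Hapln1 had r = 0.79 with that score, Ptprz1 0.48, Acan 0.078 and Tnr -0.14. Scores of other marker lists, made the same way, also ran with net genes. Hapln4 had r = -0.84 with the vascular and -0.72 with the meningeal score, and Hapln1 had 0.75 with the vascular score. With the precursor score Acan had 0.78 and Ptprz1 0.76, which were 0.54 and 0.46 without cocaine array 6. Vcan, under the background level, had 0.73 with the oligodendrocyte score. These were picked from 70 correlations of members with marker lists, and the part of astrocyte RNA in the differences was not tested.

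**Figure D4:**
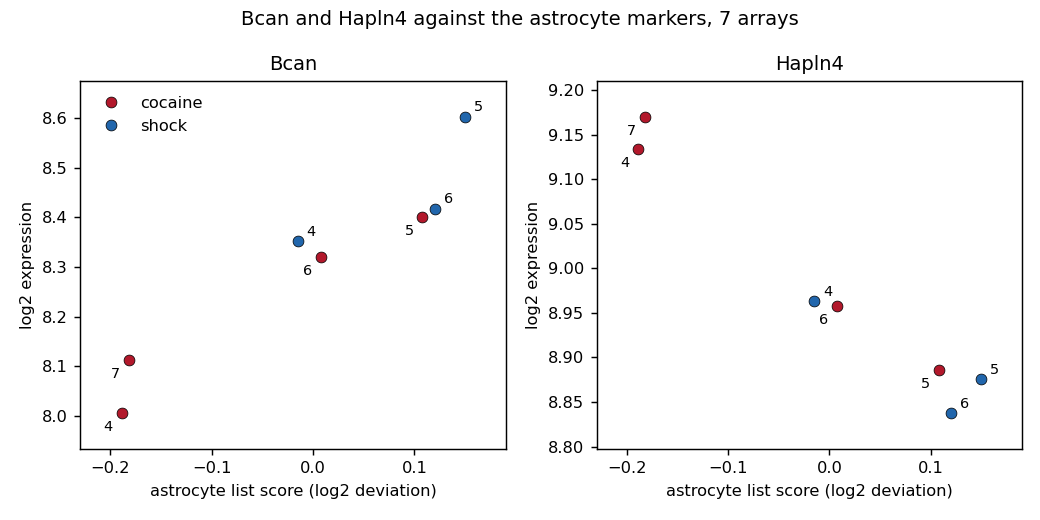
Log2 expression of Bcan (left) and Hapln4 (right) against the astrocyte score of each array (x axis, mean log2 deviation of 13 markers); numbers are array numbers, red cocaine, blue shock. Cocaine arrays 4 and 7, with the lowest scores, have the lowest Bcan and the highest Hapln4.

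Precursor markers, from cells that make Bcan, Vcan, Tnr and Ptprz1, had a lower mean in the cocaine group in 10 of 10 (median -0.056, or -0.0035 with 5 of 10 lower without cocaine array 6, -0.034 with 7 of 10 lower without shock array 5 and -0.091 without cocaine array 5). Their scores were -0.095 to 0.024 on the cocaine arrays and 0.017 to 0.066 on the shock arrays. The lineage factor gene Olig2 differed by -0.16 (limma, unadjusted p = 0.0445, adjusted p = 0.938), the sialidase gene Neu4 by -0.13 and the growth factor receptor gene Pdgfra by -0.040. The list set for parvalbumin cells had a lower mean in 8 of 11 (median -0.044, or -0.023 after median centring). Its scores were -0.057 to 0.031 on the cocaine arrays and -0.0075 to 0.066 on the shock arrays. Beside Pvalb this list holds Gad1, Gad2, Lhx6, Sox6 and Erbb4, which other interneurons share, so the count is not one for parvalbumin cells alone. Pvalb itself lay under the background level at 5.30 ± 0.07 on the cocaine arrays and 5.27 ± 0.20 on the shock arrays (mean ± SD, n = 4 and 3). The transcription factor genes Sox6 (-0.12) and Lhx6 (-0.12), which specify these and other interneurons, had lower means in the cocaine group, and the tachykinin gene Tac1 (0.14) had a higher one. Without shock array 6 Sox6 differed by -0.048 and Lhx6 by -0.075, and without cocaine array 6 Lhx6 differed by -0.073. Vascular markers had a lower mean in 12 of 12 (median -0.29, or -0.19 without shock array 6), among them the transporter genes Slco1a4 (-0.48) and Abcb1a (-0.26) and the cadherin gene Cdh5 (-0.30). Their scores were -0.36 to 0.046 on the cocaine arrays and 0.0079 to 0.32 on the shock arrays. Of these 12, 5 had an unadjusted p under 0.05 (3.1% of all genes) and 3 had groups that did not overlap (2.37% of all genes), and 0 passed limma's adjusted test. Of 8 meningeal markers 2 had an unadjusted p under 0.05 and 1 had groups that did not overlap. Medians were -0.23 for meningeal (7 of 8 lower, with Slc6a13 at -0.23), -0.084 for microglial (6 of 9 lower, with Siglech at -0.084), 0.098 for myelinating oligodendrocyte (1 of 9 lower, with Cldn11 at 0.14) and 0.0073 for excitatory neuron markers (3 of 7 lower). Without shock array 6 these medians were -0.11 for meningeal, -0.036 for microglial, 0.033 for oligodendrocyte (3 of 9 lower) and -0.0025 for excitatory markers. Leaving out cocaine array 6 or shock array 5 gave microglial medians of -0.054 and -0.055. The oligodendrocyte median was 0.040 without cocaine array 7, and the excitatory median -0.011 without shock array 5. The part of any of these cells in the values of the net genes was not tested.

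The rest of the pathway was read from 4 lists with 79 of 82 genes measured, of which 0 passed the adjusted test (0% of all genes), 1 had an unadjusted p under 0.05 (3.1% of all genes) and 2 had groups that did not overlap (2.37% of all genes). Enzymes that build and sulfate chondroitin chains had a lower mean in the cocaine group in 10 of 19 (median -0.011). That median has no settled sign, since it was positive, from 0.0026 to 0.048, without any 1 of cocaine arrays 5, 6 and 7 and shock arrays 4 and 6, and 0.0093 with 6 of 19 lower after median centring. The sulfotransferase gene Chst3, which was under the background level, differed by 0.093, the chain polymerisation factor gene Chpf by 0.073 and the linker enzyme gene B4galt7 by -0.094. With its probe sets averaged, B4galt7 differed by -0.0086. None of the 19 had an unadjusted p under 0.05.

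Proteases, hyaluronidases and their inhibitors, which remodel nets, had a lower mean in 14 of 23 (median -0.026, from -0.059 to -0.013 when any 1 array was left out). Reck, a membrane-anchored inhibitor of matrix metalloproteinases, had 6.33, 6.26, 5.80 and 6.06 on the cocaine arrays, against 6.52, 6.45 and 6.42 on the shock arrays. All cocaine values lay below all shock values, and the difference was -0.35 (SE 0.13, limma, unadjusted p = 0.0295, adjusted p = 0.938). It was -0.24 without cocaine array 6, the lowest array, and -0.42 without cocaine array 4. Hyal2, a hyaluronidase, differed by -0.17 and Timp4, a metalloproteinase inhibitor, by -0.16. Neither had an unadjusted p under 0.05.

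Receptors and factors bound by nets had a lower mean in 9 of 23 (median 0.0018, from -0.0047 to 0.011 when any 1 array was left out). The largest difference among those named was that of Nptx2 (0.20, SE 0.086, limma, unadjusted p = 0.052), a secreted pentraxin that gathers AMPA receptors on interneurons. Mdk, a heparin-binding growth factor that binds Ptprz1, differed by -0.20, and Rtn4rl2, a Nogo receptor relative, by -0.059 with groups that did not overlap. Other link proteins, tenascins and proteoglycans had a lower mean in 11 of 14 (median -0.059). The small proteoglycans Bgn (-0.46) and Dcn (-0.42), known from connective tissue, varied widely between arrays (SE 0.28 and 0.25). Without shock array 5 Bgn differed by -0.70 and Dcn by -0.73, without shock array 6 Bgn by -0.27 and Dcn by -0.19, and Bgn by -0.29 without cocaine array 7 and -0.28 with its probe sets averaged. Tnc, the tenascin of developing brain and astrocytes, differed by -0.13, Cspg4, the proteoglycan of precursors and pericytes, by -0.071, and the synthase gene Has1, under the background level, by -0.076.

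**Figure D5:**
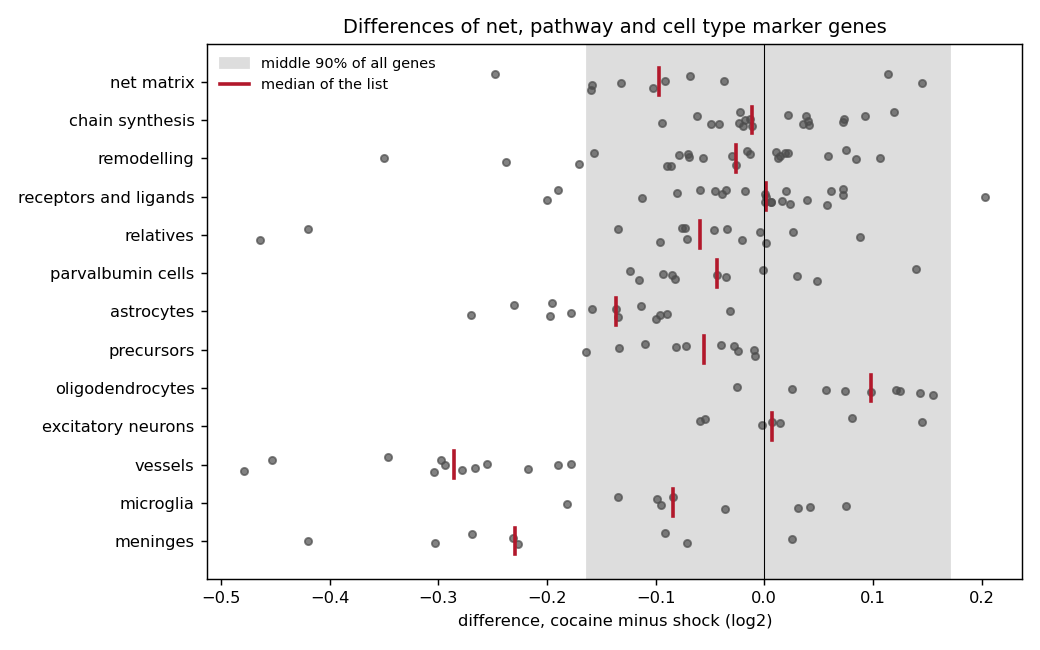
Differences, cocaine minus shock (x axis, log2), of every measured gene of the net, pathway and marker lists (points, spread vertically for legibility), with the list median in red and the middle 90% of all genes in grey (-0.16 to 0.17). The net genes centre at -0.097, and the medians of the lists run from -0.29 for vessels to 0.098 for oligodendrocytes.

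The genes with the profile most like that of each net gene were looked up among the 13761 other genes above background. Predicted genes (symbols of Gm and a number, starting with LOC or ending in Rik) were passed over in the naming. They may be more alike than the genes named, and they are included in the counts below. For Bcan they were Acsbg1 (r = 0.99), an acyl-CoA synthetase gene, and Cdc42ep4 (r = 0.99). For Hapln4 they were Fhit (r = 0.98) and Osbpl2 (r = 0.96), for Hapln1 Tgm2 (r = 0.97), a transglutaminase gene, and Parva (r = 0.97), and for Ncan the glutamate receptor subunit gene Grin3a (r = 0.96) and Farp1 (r = 0.96). Ptprz1 was most like Dhtkd1 (r = 0.98) and Cbfb (r = 0.98), and Has3 most like Esrp2 and Aqp7 (r = 0.96 each). For Acan they were Il25 and Cep164 (r = 0.999 each), and for Tnr Smim20 (r = 0.996) and Crtc2 (r = 0.988). Acan and Tnr shared r over 0.9 with 458 and 329 genes (3.33% and 2.39%), against 37 to 71 genes for the other 6. Il25 and Cep164 share with Acan the low value of cocaine array 6. Nothing on shared control or function follows from such likeness over 7 arrays.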

How the data were processed

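The authors deposited 1 table of log2 values for 41345 probe sets on 7 one-colour Affymetrix arrays. The log2 scale was read from the values (1.12 to 13.44). Transcriptome Analysis Console is named per the submitters' processing notes. How signals were summarized, background-corrected and normalized is not given in the sources used here. Arrays have no read depth, so their number limits the precision. The platform annotation gave 1 symbol to 23521 probe sets, several to 1814 and none to 16010. The probe set with the highest mean was kept per gene, leaving 22180 genes.

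Groups were compared by a two-sided moderated test with no covariate (lmFit and eBayes of limma 3.58.1, R 4.3.3), with Benjamini-Hochberg adjustment over all genes at 0.05. The test was also run on simulated data, drawn as independent normal values with shifts larger than the difference of any net gene. Other lists were described by counts and medians. Members and lists were chosen with earlier results of these data known. Named beside the members were up to 3 genes of smallest unadjusted p per list (1 for excitatory, oligodendrocyte, microglial and meningeal markers), 9 genes always named, and the 2 most alike genes per member above background. Predicted genes were left out of the choice of most alike genes. Correlations are Pearson's over arrays, without p. The labels do not say whether array numbers pair the samples, and the main test did not pair them. Deviations of same-numbered arrays correlated at 0.13, 0.064 and 0.16. Differently numbered arrays were not set beside these, so the values cannot settle whether numbers mark a shared batch. Alternatives tried were the array number as a replicate block, array weights, trend and robust moderation, averaging a gene's probe sets, a filter on dim genes, median centring, quantile normalization, and each array left out in turn.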

Additional observations from a re-analysis of the deposited data

Results flagged for a closer look

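Among the 4 cocaine arrays, a single array stood apart from the other 3 for 6 of 75 measures, by a gap to its nearest neighbour, as a share of the range, past Dixon's 95% limit for 4 samples. Chance passes about 1 in 20 of independent measures, here 3.75. Cocaine array 6 was the low one for Acan (0.9772 of the range), for Hapln3 (0.8843) and for Lhx6 (0.8987). It was also the low one for Il25 (0.9957) and Cep164 (1), the 2 genes named as most like Acan once predicted genes were passed over. Il25 and Cep164 were picked for their likeness to Acan, so they are no separate observation. Cocaine array 4 was the low one for Sox6 (0.8519). Identical values on several arrays, as for Acan and Cep164, favour a large gap. Shock arrays were not examined this way, with 3 in the group.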

How the results depend on the processing

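Under all 14 alternatives 0 net genes and 0 of all genes passed the adjusted threshold. The number of net genes whose groups did not overlap was 1 to 3 when 1 array was left out: Ptprz1 each time, with Has2 without cocaine array 4, Bcan and Hapln1 without cocaine array 5, Bcan and Hapln4 without shock array 4, and Acan and Has2 without shock array 6. Removing an array cannot make separate groups overlap, so Ptprz1 was bound to recur. Leaving out arrays makes such gaps more frequent, in 4.04% to 9.68% of all genes. The median difference of the net genes stayed negative, from -0.13 to -0.049. With the array number as a replicate block, which leaves cocaine array 7 without a partner, it was -0.083, Bcan differed by -0.22, Hapln4 by 0.10 and Hapln1 by -0.066, and 0 net genes were called. Direction turned for a few small differences when 1 array was left out. The ranges were -0.0054 to 0.19 for Vcan, -0.12 to 0.015 for Tnr, -0.14 to 0.031 for Has3, -0.072 to 0.064 for Hapln2, -0.046 to 0.031 for Hapln3, -0.11 to 0.026 for Pdgfra, -0.032 to 0.15 for Pvalb, -0.14 to 0.0033 for Cspg4, -0.018 to 0.0048 for Crtc2 and -0.041 to 0.0036 for Smim20. Hapln3 was 0.012 after quantile normalization and 0.016 after median centring, Crtc2 0.012 after median centring, and Hapln2 -0.014 with the replicate block. The cause was not tested. Of the 52 genes outside the net set that were chosen for naming, 37 had a difference that moved by over 1.5 times without at least 1 of the arrays, and none was called. The median correlation between net genes ranged from 0.28 to 0.47 when 1 array was left out. The signals of Acan, Has2, Has3 and Vcan lie near background, which limits what their differences can show.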
